A study of Homo sapiens with 6 samples.

Results

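SERPINE2 and the plasminogen activator system were examined in 6 RNA sequencing libraries. The genes encode a protease inhibitor (SERPINE2), the activators PLAU and PLAT, PLAUR as the receptor of PLAU, and the inhibitor SERPINB2. The genes were listed by symbol, and the group was chosen by measured values of these libraries, namely a higher SERPINE2 and a lower PLAU with VIM-AS1. Differences of the listed genes between the groups are therefore given as a description, without a test. Of the 5 genes, 4 had values among the 25969 genes of the deposited files, and SERPINB2 was not analysed here. The cells are labelled LNCaP, a prostate cancer line that responds to androgen and was established from a metastasis. In 3 libraries the cells carried an overexpression vector for the noncoding RNA VIM-AS1, transcribed opposite to vimentin, and the 3 controls carried the pcDNA3.1 vector. The comparison addresses which transcripts differ when VIM-AS1 is overexpressed. Separate cultures are not mentioned in the labels, and p-values then reflect the spread between these libraries alone, which may be technical.

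The libraries held 14762893 to 19889745 reads. VIM-AS1 itself had 2085, 2061 and 2700 reads where it was overexpressed, against 9, 1 and 7 in the controls, as the labels say. The defining LNCaP marker KLK3, the gene for prostate-specific antigen, went against the cell label, with 2 reads in control replicate 1 and 0 in the other 5 libraries. FOLH1, the gene for prostate-specific membrane antigen, had 0 reads in all 3 overexpression libraries and 4, 2 and 0 in the controls. The luminal keratin KRT8 stood at 75797 ± 21557 (SD, n = 3) and 80912 ± 23113 normalized reads. Of 8 markers of basal cells or androgen receptor-negative prostate lines, CAV1, AXL and CD44 stood at means of 1262, 1904 and 2563 with VIM-AS1 and 1071, 1344 and 2413 in the controls, and CAV2 and ANXA1 were also abundant. The basal markers KRT5, KRT14 and TP63 were low, with 0 to 4, 2 to 8 and 3 to 49 reads per library. The libraries are called by their labels throughout. Replicate 3 of either group stood apart from replicates 1 and 2. Mitochondrially encoded reads made up 5.57% to 7.06% of the overexpression libraries and 8.73% to 14.3% of the controls. Summed levels per length of 6 fibroblast markers were 209.6 to 300.5 with VIM-AS1 and 327.3 to 444.3 in the controls, and COL1A1, DCN and PDGFRB were lower by limma with the term described below, while COL1A2 and LUM were at or near 0. Those of 4 myeloid markers were 5.66 to 10.9 and 16.3 to 30.4. CD14 (mean levels of 5.20 and 12.7) and CSF1R (3.02 and 6.64) made up most of them. CD68 and TYROBP had 0 reads with VIM-AS1 and 0 to 5 in the controls. Those of 5 endothelial markers were 9.67 to 13.6 and 5.49 to 8.28. VWF was the largest, at mean levels of 7.29 and 3.42, while CDH5 stood at 2.07 in both groups and ERG at 2.04 and 0.99. PECAM1 and TEK had 0 reads with VIM-AS1 and 0 to 7 in the controls. The part of these differences in the values below was not tested. In bulk RNA, fewer cells of a type and less RNA per cell cannot be told apart.

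The plasminogen activators are serine proteases that cut plasminogen, made chiefly in the liver, into plasmin, a broad protease that dissolves fibrin and degrades extracellular matrix. Urokinase, encoded by PLAU, works at the cell surface when bound to its receptor PLAUR, a protein held in the membrane by a lipid anchor, while the tissue-type activator encoded by PLAT acts mainly on fibrin. Serpins trap these proteases in covalent complexes that cells take up through receptors of the LRP1 family. SERPINE2, also called protease nexin-1, inhibits thrombin and urokinase and binds heparan sulfate. Urokinase and its receptor are known for their link to invasion in prostate and other carcinomas.

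SERPINE2 (ENSG00000135919) occupies bases 223975112 to 224039319 of chromosome 2 (minus strand), PLAU (ENSG00000122861) bases 73909177 to 73917497 of chromosome 10 (plus strand), and PLAUR (ENSG00000011422) bases 43646095 to 43670547 of chromosome 19 (minus strand). Positions are from GENCODE 29 on GRCh38. RefSeq start-site windows of 300 bases on GRCh38.p14, with 250 bases before and 50 after the start, are shown for the gene that was higher, the activator that was lower and the receptor whose groups overlapped. Each is written 5′ to 3′ on the gene's strand. Capitals mark CCAAT on either strand in SERPINE2, the GC box GGGCGG in PLAU and the AP-1 letters TGAGTCA in PLAUR.
SERPINE2, chr2:224031429-224031728, minus strand: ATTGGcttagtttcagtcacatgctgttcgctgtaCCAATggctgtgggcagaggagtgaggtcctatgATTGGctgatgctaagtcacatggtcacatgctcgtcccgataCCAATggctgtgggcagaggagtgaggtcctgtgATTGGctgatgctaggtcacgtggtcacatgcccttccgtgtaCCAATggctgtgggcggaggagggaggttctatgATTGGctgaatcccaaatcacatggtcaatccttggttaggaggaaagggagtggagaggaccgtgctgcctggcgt
PLAU, chr10:73910882-73911181, plus strand: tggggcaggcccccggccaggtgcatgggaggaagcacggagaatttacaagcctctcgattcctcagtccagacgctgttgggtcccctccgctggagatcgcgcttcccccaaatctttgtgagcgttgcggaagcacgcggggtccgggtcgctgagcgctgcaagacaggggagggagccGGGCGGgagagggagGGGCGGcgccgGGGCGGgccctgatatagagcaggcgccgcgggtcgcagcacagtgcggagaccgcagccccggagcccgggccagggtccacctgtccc
PLAUR, chr19:43670120-43670419, minus strand: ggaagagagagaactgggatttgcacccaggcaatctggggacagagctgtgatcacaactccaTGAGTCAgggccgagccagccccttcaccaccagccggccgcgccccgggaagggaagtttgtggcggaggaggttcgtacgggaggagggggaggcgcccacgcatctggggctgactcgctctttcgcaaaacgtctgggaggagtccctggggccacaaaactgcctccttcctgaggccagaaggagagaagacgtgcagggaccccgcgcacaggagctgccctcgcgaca
The SERPINE2 window held 7 copies of CCAAT, counted on both strands, with first bases from -250 to -27 before the start. Of 35116 RefSeq windows of this length, 34.6% held at least 1 CCAAT and 0.0228% held 7 or more. The copies stood in a tandem array: a run of 17 bases, TACCAATGGCTGTGGGC, occurred 3 times at a spacing of 77 bases, and 33 bases were repeated exactly in 2 of these units. An exact repeat at least that long was found in 0.90% of windows. The window also held 1 E-box (CACGTG, in 7.26% of windows). The PLAU window held 3 GC boxes, as many as 15.8% of windows did, and 4 copies of the ETS core GGAA. At least 4 GGAA were found in 46.0% of windows, and the PLAUR window also held 4 and the SERPINE2 window 2. PLAUR held 1 AP-1 match (TGACTCA or its reverse complement TGAGTCA) at -186, a match present in 4.95% of windows, and neither SERPINE2 nor PLAU held one in the windows shown. SERPINE2 and PLAU each have another RefSeq start-site window, with 0 and 1 CCAAT, and the other PLAU window held 0 GC boxes. Of 10 GENCODE 29 transcripts of SERPINE2, 1 starts within 50 bases of the start shown and 0 near the other. For PLAU, 3 of 5 start within 50 bases of the start shown and 1 near the other. The gene-level values do not separate transcripts by start site. These matches describe letters only.

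SERPINE2 stood at 244.4, 271.4 and 308.0 normalized reads in VIM-AS1 replicates 1 to 3, and at 63.3, 72.1 and 76.6 in control replicates 1 to 3. The groups did not overlap, and the lowest overexpression library was far above the highest control. The means were 274.6 ± 31.9 and 70.7 ± 6.76 (SD, n = 3), a 3.89-fold higher level, or 1.94 ± 0.16 on the log2(value + 1) scale (SE with a term for replicate 3). Between same-numbered libraries the log2 difference was 1.93, 1.90 and 1.99, so it was alike in the 3 pairs. These values rest on 232, 277 and 301 reads with VIM-AS1 and 66, 59 and 97 in the controls.

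PLAU, the urokinase gene, stood at 37.9, 45.1 and 34.8 with VIM-AS1 and at 83.5, 111.2 and 67.9 in the controls. Every overexpression library was below every control. The means were 39.3 ± 5.27 and 87.5 ± 21.9, a 2.23-fold lower level with VIM-AS1 (log2 difference -1.12 ± 0.24). Same-numbered libraries differed by -1.12, -1.28 and -0.95. Reads were few, at 34 to 46 with VIM-AS1 and 86 to 91 in the controls. C10orf55, a gene on the opposite strand, covers 916 of the 2950 bases of PLAU exons (31.1%). The named kit is not described as keeping strand, and how strand was handled in counting is not stated, so reads from the shared part cannot be assigned with certainty. C10orf55 itself had 0 to 5 reads per library.

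PLAT (ENSG00000104368), the gene for the tissue-type activator, occupies bases 42175233 to 42207724 of chromosome 8 (minus strand). It had 54.8, 66.6 and 53.2 normalized reads with VIM-AS1 and 93.0, 88.0 and 75.8 in the controls. Its groups did not overlap either, although the gap between the highest overexpression library and the lowest control was small. The means of 58.2 ± 7.33 and 85.6 ± 8.85 were 1.47-fold apart (log2 difference -0.55 ± 0.21), and same-numbered libraries differed by -0.75, -0.40 and -0.50. Both activator genes were thus lower without overlap, so in any pairing of libraries, and PLAU differed by more than PLAT in each same-numbered pair.

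PLAUR, the gene for the urokinase receptor, had 616.3, 737.8 and 459.5 normalized reads with VIM-AS1 and 633.1, 757.5 and 477.9 in the controls. The groups overlapped almost fully, with means of 604.5 ± 140 and 622.8 ± 140 and a log2 difference of -0.04 ± 0.12. In both groups the second library was highest and replicate 3 lowest, and replicate 3 lay 0.55 and 0.53 log2 units below the mean of the first and second. Same-numbered libraries differed by only -0.04, -0.04 and -0.06. Replicate 3 was lower than the other two in PLAU (by 0.24 and 0.50) and PLAT (0.18 and 0.25) and higher in SERPINE2 (0.26 and 0.18), in both groups each time. Groups did not overlap for 3 of the 4 genes, which includes those that chose the group, while 19.8% of all 20927 tested genes did not overlap.

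**Figure D1:**
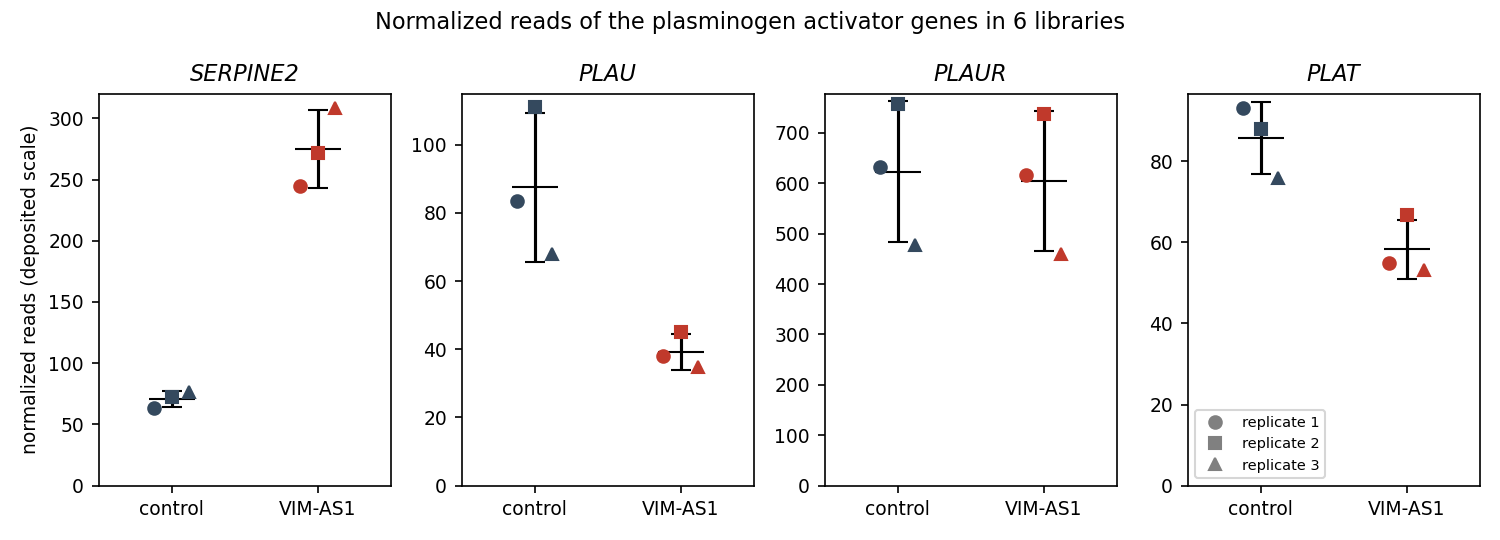
Normalized reads (deposited scale, axes from 0) of SERPINE2, PLAU, PLAUR and PLAT in 3 control and 3 VIM-AS1 libraries. Symbols are single libraries by replicate number, bars the mean and SD; SERPINE2 is higher at 244.4 to 308.0 against 63.3 to 76.6, PLAU and PLAT are lower without overlap, and the PLAUR groups overlap.

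Levels were compared between genes only per length, as normalized reads per kb of merged exons. In the controls the order was PLAUR at 139.7 ± 31.4, PLAU at 29.7 ± 7.43, PLAT at 12.9 ± 1.34 and SERPINE2 at 7.95 ± 0.76 (SD, n = 3). With VIM-AS1 it was PLAUR at 135.6 ± 31.3, SERPINE2 at 30.9 ± 3.59, PLAU at 13.3 ± 1.79 and PLAT at 8.80 ± 1.11. SERPINE2 thus moved from the lowest to the second place, and neighbours in each order were further apart than their SDs. Among tested genes, 33.9% lay below SERPINE2 per length in the controls and 57.4% with VIM-AS1, whereas the share below PLAU was 55.6% and 44.7%. PLAUR lay above 79.1% and 78.1% of tested genes. With the longest transcript in place of merged exons, the levels of PLAU and PLAT changed places with VIM-AS1 (13.1 to 17.0 and 15.4 to 19.2 per kb), and their order there depends on the length used.

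The ratio of SERPINE2 to PLAU per kb was 2.14, 2.0 and 2.94 with VIM-AS1 and 0.252, 0.215 and 0.374 in the controls. SERPINE2 transcripts thus exceeded those of PLAU in each overexpression library and were fewer in each control, also with the longest transcripts (2.67 to 3.93 and 0.288 to 0.501). The summed activators PLAU and PLAT gave 19.8 to 25.3 normalized reads per kb with VIM-AS1 and 34.5 to 51.0 in the controls, with no overlap. SERPINE2 over this sum was 1.20 to 1.75 with VIM-AS1 and 0.159 to 0.250 in the controls. The ratio of PLAUR to PLAU was 8.74 to 10.8 and 4.51 to 5.02, so the receptor exceeded its ligand per kb in every library. All these ratios contain the genes that chose the group and carry no test.

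**Figure D2:**
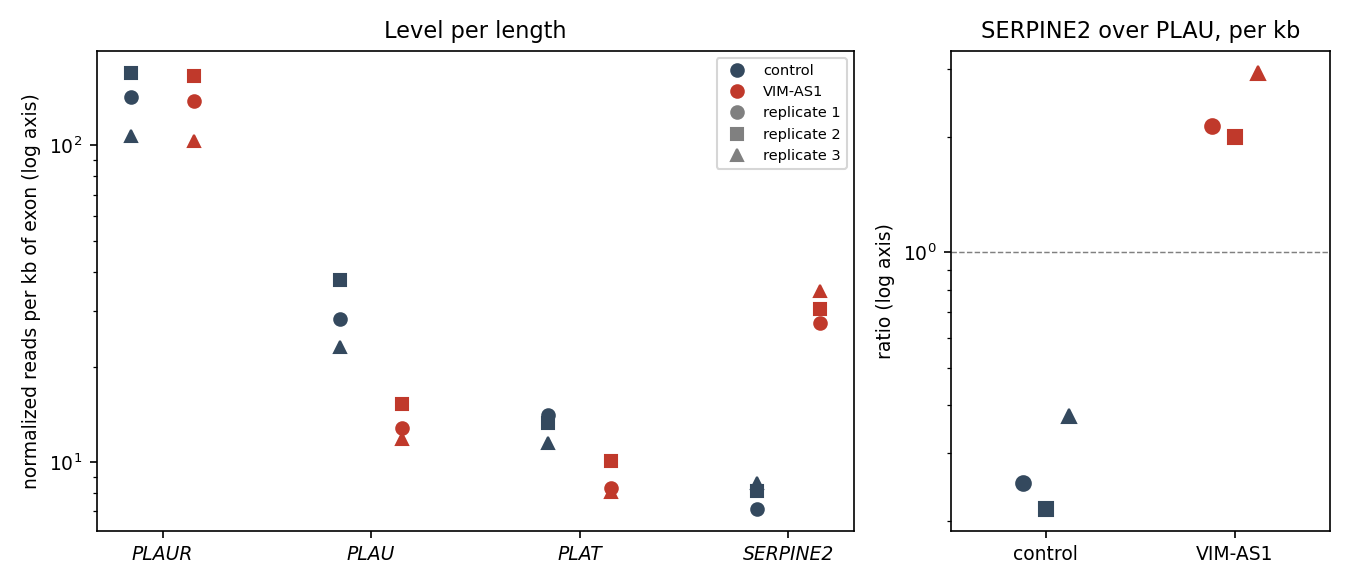
Left, normalized reads per kb of merged exons (log axis) of the 4 genes in each library, with controls and VIM-AS1 libraries side by side; right, the ratio of SERPINE2 to PLAU per kb (log axis, dashed line at equality). The ratio lies at 2.0 to 2.94 with VIM-AS1 and 0.215 to 0.374 in the controls.

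By Pearson's r of log2(value + 1) over the 6 libraries, as a description, the genes most like SERPINE2 among 9674 with a mean of at least 100 were GLTP (r = 0.997), FAM83D (0.996), DKC1 (0.995), SLC25A13 (0.994) and GART (0.993). FAM83D stood at 1640 ± 89.0 with VIM-AS1 and 826.0 ± 65.9 in the controls. The genes most like PLAU were TMC8 (r = 0.996), C17orf97, C15orf61, SPINT1 (each 0.993) and OLMALINC (0.992). All 6 libraries share the group difference and the shift of replicate 3, which alone can give a high r. Among the members, PLAU had r = 0.95 with PLAT and 0.42 with PLAUR, and SERPINE2 had r = -0.93 with PLAU.

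Genes around the system came from 7 lists of known function and from all other genes with a SERPIN symbol, in all 116 tested genes, 2 of them in more than 1 list. By limma without a term, 0 of the 116 passed an adjusted p of 0.05, 31 had an unadjusted p under 0.05, and edgeR, limma-voom and DESeq2 called 0, 0 and 9. With a term for replicate 3, limma called 42, of which 27 were higher and 15 lower. This term was chosen because those libraries stood apart in these same data, so its p-values may be too small. Of all 20927 tested genes it called 19.4% (11.5% higher and 7.94% lower), and without the term 0.0239% were called. The replicate block called 56 of the 116 and 26.6% of all genes. The count with the term fell to 6 when VIM-AS1 replicate 3 was left out, to 13 when control replicate 3 was and to 18 when both were. Over all tested genes the same fits called 288 of 20998, 618 of 20736 and 1101 of 20718. In these fits the difference rests on replicates 1 and 2 of each group alone, so they are not separate checks. Below, "rose" and "fell" mean that limma with the term gave an adjusted p below 0.05, and none of the genes so named passed without it. These words do not mean separate groups, which overlapped for LRPAP1, MRC2, MET, MST1R, NDST1, HS6ST2, HTRA1, SPINT2, FOSL1 and JUND.

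Of 5 other tested core genes, 0 rose, 0 fell and 5 did not pass in limma with the term, 1 of them at an unadjusted p under 0.05, and their median log2 difference was -0.14 against -0.02 over all tested genes. With the same term, edgeR and limma-voom each called 1 lower and DESeq2 called 0. The antiplasmin gene SERPINF2 (-0.64 ± 0.32) and the contact factor F12 (-0.14 ± 0.14) were among them. PZP, a broad protease inhibitor, had -0.77 ± 0.28 (limma adjusted p = 0.059, and 0.0166 with the replicate block). PLG and SERPINA5 were not analysed here.

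Of 18 genes of surface binding and uptake 4 rose, 1 fell and 13 did not pass (2 and 0 without both replicates 3, and 9 in all with the block), with a median of 0.28. LRP8, a receptor of the LDL receptor family, rose from 638.0 ± 35.9 to 1154 ± 88.1 (log2 difference 0.85 ± 0.10, limma adjusted p = 1.64e-05), and ITGB5, the beta subunit of a vitronectin receptor, by 0.76 ± 0.11. LRPAP1, the chaperone of LRP receptors, and IGF2R rose by 0.41 and 0.36. MRC2, the uPAR-associated collagen receptor, fell by 0.29. ANXA2 had 0.27 ± 0.12 and did not pass (limma adjusted p = 0.126), although it did with the block (0.0199), DESeq2 (0.0247) and limma-voom (0.0466), with adjusted p-values up to 0.479 over the alternatives. Its partner S100A10 had -0.20 ± 0.11. LRP1, which clears serpin complexes, had -0.07 ± 0.13.

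Of 20 metalloprotease, TIMP and growth factor genes 2 rose, 3 fell and 15 did not pass (0 and 1 without both replicates 3), with a median of -0.11. MMP11, a metalloprotease also known as stromelysin-3, fell from 127.6, 114.8 and 77.4 in the controls to 32.7, 38.2 and 33.8 with VIM-AS1 (log2 difference -1.56 ± 0.23, limma adjusted p = 0.000121). It stayed called in each alternative with the term. MET, the HGF receptor, and FN1, the fibronectin gene, rose by 0.74 and 0.49. MST1 fell by 0.84 and its receptor MST1R by 0.39, although MST1 has near-identical pseudogene copies that could share its reads. MMP9 differed by -0.00 ± 0.39 at 16.6 and 16.5 normalized reads, and TIMP1 to TIMP4 did not pass.

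Of 11 genes of thrombin and its control 2 rose, 1 fell and 8 did not pass (0 and 1 without both replicates 3, and 5 in all with the block). THBD, the thrombin-binding anticoagulant thrombomodulin, rose from 30.5 ± 9.03 to 67.0 ± 9.92, and TFPI2, a Kunitz-type inhibitor, from 38.0 ± 7.72 to 75.4 ± 7.80. PROC, the gene for protein C, fell from 48.0, 41.5 and 34.8 to 15.8, 12.7 and 16.4. The groups did not overlap in any of these, though THBD lost its call without VIM-AS1 replicate 2, and THBD, TFPI2 and PROC lost theirs without replicate 3 of either group. Prothrombin itself (F2) had 0 to 7 reads, and the thrombin receptor F2R differed by -0.21 ± 0.21. The list's median was -0.26.

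Genes of heparan sulfate, the chain that SERPINE2 binds, numbered 23, of which 7 rose, 1 fell and 15 did not pass (3 and 1 without both replicates 3), with a median of 0.25. The syndecan SDC1 rose from 1764 ± 483 to 2813 ± 599, and the chain-building genes HS6ST2 (0.85), NDST1 (0.62) and EXT2 (0.60) rose on the log2 scale. The glypican GPC2 fell by 1.14. Without VIM-AS1 replicate 3, 0 of the 23 were called, and without control replicate 3, 1 was called.

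Epithelial trypsin-like proteases and their Kunitz inhibitors went both ways, with 3 of 12 higher, 4 lower and 5 not passing (1 and 1 without both replicates 3), and a median of -0.50. PRSS23 rose from 1816, 1776 and 1751 to 3299, 3549 and 3467 (log2 difference 0.95 ± 0.10, limma adjusted p = 3.21e-06), a call kept in each alternative with the term. HTRA1 rose by 0.51. SPINT1, the hepatocyte growth factor activator inhibitor, fell from 276.3, 427.6 and 214.8 to 109.6, 153.8 and 94.1 (-1.33 ± 0.18). SPINT2 (-1.19 ± 0.38) and the membrane protease gene HPN (-1.18 ± 0.37) fell at 11.3 to 59.5 normalized reads per library, and the SPINT2 groups overlapped. Both calls were lost with DESeq2 (adjusted p = 0.0529 for SPINT2 and 0.0658 for HPN), without a filter and without control replicate 1, among others, and that of SPINT2 also with library size scaling.

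Transcription factors of the ETS, AP-1 and NF-kB families, listed as possible regulators of PLAU, numbered 15. Of these 8 rose, 4 fell and 3 did not pass (4 and 3 without both replicates 3), with a median of 0.34. The PEA3 group rose, with ETV4 at 960.9, 987.6 and 624.2 against 253.2, 362.8 and 184.0 (log2 difference 1.71 ± 0.13, limma adjusted p = 1.46e-07), ETV5 by 1.56 ± 0.29 and ETV1 by 1.0 ± 0.26. NFKB1 (0.82) and FOSL1 (0.75) rose. The members that fell were the AP-1 genes FOS, JUN, JUNB and JUND, by 0.67, 0.61, 0.74 and 0.47, named after their values were seen. PLAU itself was lower in these libraries, as given above, and a link between these factors and PLAU was not tested.

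**Figure D3:**
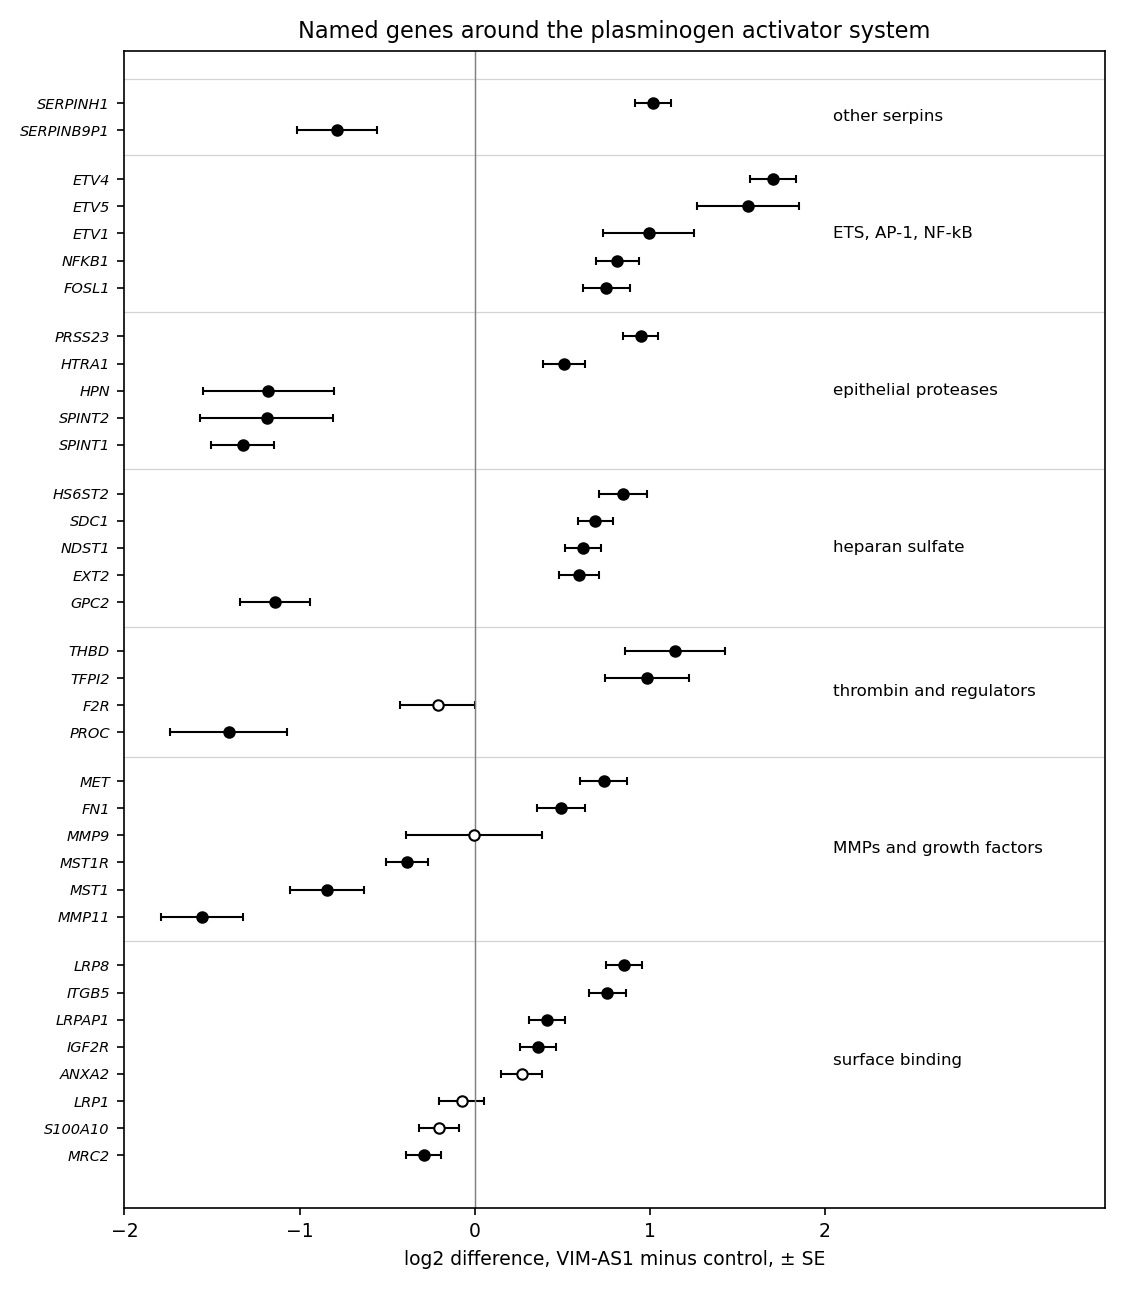
Log2 difference (VIM-AS1 minus control, ± SE of limma with the term) for the genes named from each list. Filled points passed the test in that fit and open points did not; ETV4 (1.71) lies furthest to the right and MMP11 (-1.56) furthest to the left.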

How the data were processed

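The members and gene lists were chosen with earlier results of these data known. Per the submitters' processing notes, fastp, HISAT2 and featureCounts were used with build hg38. Versions, annotation and strand setting are not given in the sources used here. Per the labels' protocols, each library started from 1.3 µg RNA. Each deposited value is a gene's read count after division by a factor of its library, recorded here as signal. In each library 100% of values were whole multiples of 1 step within 0.01 read, so whole reads were recovered, and the factors (0.819 to 1.27) equalled median-of-ratios size factors. Counting error alone allows up to 3 reads where 0 were seen.

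Symbols were matched for all 25969 identifiers, and lengths came from GENCODE 29. The test was limma 3.58.1 (R 4.3.3), with an intensity trend on log2(value + 1), which understates the change of low genes. It covered 20927 genes with a mean of at least 1, two-sided, with Benjamini-Hochberg adjustment over all of them, without and with a term for replicate 3 of each group. Alternatives included edgeR 4.0.16 and DESeq2 1.42.0 on recovered reads, other scalings and filters, a pseudocount of 0.1, and each library left out. Same-numbered libraries deviated together from their group means (r = 0.32, 0.72 and 0.84 over 13175 genes). Replicates 1 and 2 also did so across numbers (0.42 and 0.33). A fit with the replicate number as a block was also run, in which every listed call was kept or gained.

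Named genes were the members, a few fixed genes (PLG, ANXA2, S100A10, LRP1, MMP9, F2R, SERPINA5 and KLK3) and, per list, up to 5 called genes with a mean of at least 20 by size of change. Other list members were named after their values were seen. PLG and SERPINA5, like SERPINB2, were not analysed here, and 1 gene of the rule is not reported here.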

Additional observations from a re-analysis of the deposited data

How the results depend on the processing

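Over 16 alternatives the log2 difference of SERPINE2 ranged from 1.88 to 2.0, of PLAU from -1.21 to -0.97 and of PLAT from -0.62 to -0.46, while that of PLAUR ranged from -0.12 to 0.03. The filters and the replicate block cannot move these differences. The fits without either or both replicates 3 gave the same value, 1.92 for SERPINE2 and -1.20 for PLAU. Without a term, limma called 5 genes, against 28 with library size scaling, 17 without a filter, 353 by DESeq2, 5571 with the replicate block, 1101 without both replicates 3 (an alternative chosen after seeing the data), and 2 to 41 when single libraries were left out. With the term the 4065 calls became 1101 without both replicates 3 and 288 to 4493 when single libraries were left out. The 42 calls among listed genes became 18 and 6 to 46. The naming rule gave 30 genes called with the term, and FOS, JUN, JUNB and JUND were not among them. Of these 30, LRP8, MMP11, PRSS23, SERPINH1 and ETV4 kept the call in each alternative. The call was lost by 25 when VIM-AS1 replicate 3 was left out, by 20 when control replicate 3 was and by 15 when both were. No named call changed direction in the alternatives run, and where not stated beside a result the replicate block changed no other call of a named gene, the members aside, which carry no test. The only calls lost to another scaling, filter or tool were those of HPN, SPINT2 and MRC2. With the term, the fits without either or both replicates 3 all compare replicates 1 and 2 alone and are not separate checks. The cause of the changes in calls was not tested. Depth limits genes with few reads, such as MMP9 (13 to 19 per library), HPN (11 to 42) and SPINT2 (12 to 62).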

Other observations

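Of 14 other tested genes with a SERPIN symbol, 1 rose, 1 fell and 12 did not pass in limma with the term for replicate 3. These calls were 14.3% of the 14, against 19.4% of all tested genes. Without both replicates 3 the counts were 1 and 0. The replicate block called 4 in all, and 26.6% of all genes. The median log2 difference of the 14 was 0.03, or -0.08 without both replicates 3. SERPINH1, the collagen chaperone HSP47 of the endoplasmic reticulum and not a protease inhibitor, rose from 2460, 2806 and 1792 normalized reads in the controls to 5069, 5469 and 3712 with VIM-AS1 (log2 difference 1.02 ± 0.10, limma adjusted p = 2.34e-06). The call was kept in each alternative run with the term. The pseudogene SERPINB9P1 fell by 0.79 ± 0.23. Its reads may be shared with SERPINB9, which had no value among the 25969 genes, and such sharing was not tested. The abundant intracellular serpins SERPINB1 and SERPINB6 differed by 0.23 and 0.18 and did not pass, although SERPINB1 did with the replicate block (limma adjusted p = 0.033).

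Genes next to SERPINE2 and PLAU were also read, and their calls with the term are set against the 19.4% of all tested genes that it called, a share near theirs. Without the term 0 were called. Within 500 kb of SERPINE2, 5 genes were tested and 1 was called, AP1S3, an adaptor subunit of vesicle transport, which rose from 64.8 ± 11.8 to 115.8 ± 27.3 normalized reads (SD, n = 3), at 137085 bases from SERPINE2. Its closest coding neighbour MRPL44, at 7398 bases, had a log2 difference of 0.31 and did not pass (limma adjusted p = 0.107, and 0.0223 with the replicate block). Within 500 kb of PLAU, 29 genes were tested, of which 3 rose and 4 fell. VCL, the vinculin gene of focal adhesions, SEC24C and ANXA7 rose by 0.63, 0.93 and 0.34, and MYOZ1 and the pseudogene GLUD1P3 were among those that fell (-1.95 and -0.86). CAMK2G, at 34586 bases from PLAU, differed by 0.02 at 1420 and 1413 normalized reads.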
